A study of Homo sapiens with 6 samples.

Results

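The genes described here are 48 genes of DNA replication and of entry into S phase, the stage of the cell cycle in which the genome is copied. They were listed by name from textbook roles, and each was represented by the RefSeq transcript accession with the highest base mean, the authors' measure of abundance, in their deposited table. Of 27734 genes matched in that table, the 48 were followed through 1 comparison of the established human glioblastoma line U87. The knockout group carried EGFR+vIII with a TLR2 KO (3 libraries), and the group it was set against carried EGFR+vIII alone (3 libraries). Both groups thus carried EGFR, the epidermal growth factor receptor, and vIII, its constitutively active deletion mutant. TLR2 is a Toll-like receptor that senses microbial lipoproteins at the cell surface. Whether the knockout is a single clone, how it was made, and whether the libraries of a group are separate cultures is not given in the labels, so that the p-values rest on the spread between libraries that may be technical repeats.

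Replication starts when the origin recognition complex, CDC6 and CDT1 load the ring of MCM2 to MCM7 onto origins, and the ring becomes the working helicase once CDC45 and the GINS complex have joined it. Polymerase alpha with primase then starts each strand, the clamp loader RFC places the sliding clamp PCNA, and polymerases delta and epsilon extend the strands. Many of these genes are switched on at the boundary between G1 and S by E2F transcription factors, which the retinoblastoma protein holds back until cyclin-dependent kinases release them, and E2F7 and E2F8 are repressing members that shut the same genes off again.

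All values below rest on 1 table of the authors' own comparison, which gives no value per library. The base mean is the mean over the 6 libraries of read counts divided by size factors. The base means of the authors' deposited table sum to 11240272 normalized reads. That sum is the average per library of counted reads only, which is not the sequencing depth. Fold changes are the knockout over EGFR+vIII, as the name of the table orders them. The targeted gene offers no check of that order, because all 8 accessions of TLR2 are listed at 0 in the authors' deposited table, and EGFR has a highest base mean of 1.32 there over 9 accessions. Among markers of the line and of other cells, VIM has a base mean of 126476, NES 540, CD44 26.7 and FN1 4.98, and GFAP, S100B and AQP4 (astrocytes), PTPRC, CD14 and MS4A1 (leucocytes), CDH1, RBFOX3 and SNAP25 are at 0 in the authors' deposited table. Except for S100B, the markers at 0 have several RefSeq transcripts each, as CD44, FN1, TLR2 and EGFR do. For genes of that kind a low listing says little about expression, as described below for the members. Of the endothelial markers, PECAM1 has a base mean of 159, VWF 13.5 and CDH5 0.539 in the authors' deposited table. EPCAM has 22.4 there and the T cell gene CD3E 2.47. CDH5 and CD3E have no adjusted p, and those of PECAM1, VWF and EPCAM are not under 0.05. Among the line's own markers, NES rose 2.01-fold (adjusted p = 1.15e-14), more than any of the 48 genes, and VIM fell to 0.819-fold (adjusted p = 0.00235) in the authors' deposited table. Their part in the results below was not tested.

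Shown first are the promoters of the 3 members with the largest Wald scores among those that hold an E2F word, as defined below. They were picked for holding a word, so they do not show how common such words are. They are taken from RefSeq (GRCh38.p14, the same build as the hg38 of the submitters' notes) and run 5′ to 3′ from 220 bases before to 30 bases after the annotated start. Capitals mark 8-base E2F words, namely TTTCCCGC, TTTCGCGC, TTTGCCGC and TTTGGCGC on either strand. The MCM6 window is chr2:135876414-135876663, minus strand, the E2F1 window chr20:33686356-33686605, minus strand, and the RFC3 window chr13:33817929-33818178, plus strand.
MCM6: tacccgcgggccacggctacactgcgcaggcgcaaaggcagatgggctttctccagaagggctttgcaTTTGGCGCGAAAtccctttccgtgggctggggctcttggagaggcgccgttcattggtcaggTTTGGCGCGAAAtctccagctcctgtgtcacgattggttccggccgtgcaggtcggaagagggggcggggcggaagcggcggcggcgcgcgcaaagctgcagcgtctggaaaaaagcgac
E2F1: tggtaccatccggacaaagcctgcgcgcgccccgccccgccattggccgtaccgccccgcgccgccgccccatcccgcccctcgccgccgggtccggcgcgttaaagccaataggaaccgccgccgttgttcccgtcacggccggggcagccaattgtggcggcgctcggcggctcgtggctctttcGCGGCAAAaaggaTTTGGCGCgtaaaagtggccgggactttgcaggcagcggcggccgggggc
RFC3: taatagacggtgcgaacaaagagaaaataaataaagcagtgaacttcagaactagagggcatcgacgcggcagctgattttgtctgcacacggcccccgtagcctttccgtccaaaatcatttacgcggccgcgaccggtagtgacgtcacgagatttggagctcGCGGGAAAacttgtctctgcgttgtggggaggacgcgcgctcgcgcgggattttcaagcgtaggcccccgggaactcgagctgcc
The MCM6 window holds 4 matches as overlapping pairs on opposite strands, at -152 and -148 and again at -90 and -86, with 0 the first transcribed base. E2F1 has 2, at -33 and -20, and RFC3 has 1, at -55. A match of letters is a description of the window and does not show that a factor is bound there.

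How many members could be read depended on which of them had an adjusted p. An adjusted p was given to 24 of the 48 genes in the authors' deposited table, and the 24 others had none. Of those without one, 11 are listed at 0 in every accession: MCM2, ORC1, ORC6, MCM10, CDC45, GINS1, RFC1, RFC2, RPA1, TYMS and CCNE1. The 13 others without one are MCM3, MCM4, MCM7, GINS3, POLA1, POLD1, POLE2, PCNA, RFC5, LIG1, RPA2, RRM2 and TK1, with highest base means between 0.158 and 2.97 in the authors' deposited table. PCNA, the sliding clamp and a marker of S phase in every dividing cell, has a base mean of 2.36, or 14.2 normalized reads over all 6 libraries, in the authors' deposited table. RRM2, the regulated subunit of ribonucleotide reductase, reaches 6.92 normalized reads over the 6 libraries of the same table. Values this low for PCNA show that a listing near 0 says little about the expression of these genes.

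The split followed the number of accessions. All 15 members with 1 accession had an adjusted p in the authors' deposited table, against 9 of 33 members with several (27.3%). For protein-coding genes as a whole in the authors' deposited table, the shares with an adjusted p were 55.3% of 7924 genes with 1 accession and 31.0% of 11208 genes with several. The sources used here do not give how reads shared by isoforms were counted. Complexes and enzyme groups are therefore often seen in part only. An adjusted p was given to 2 of 6 genes of the MCM ring and to 1 of 4 for nucleotide synthesis. Whether the rest changed was not detectable.

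**Figure D1:**
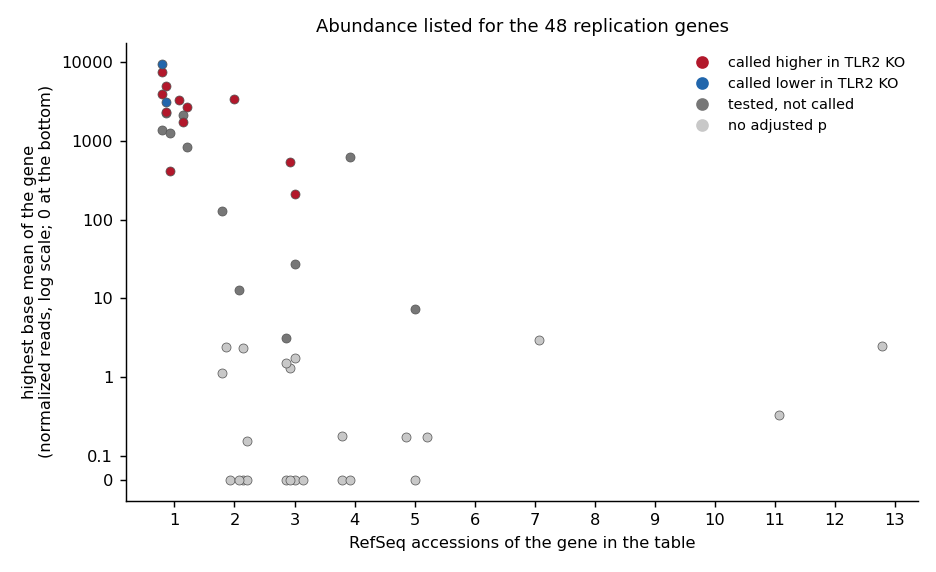
Highest base mean (normalized reads, log scale, with 0 drawn at the bottom) against the number of RefSeq accessions, 1 point per gene for the 48 replication genes, coloured by call. All 15 genes with 1 accession lie at base means of 418 or more, and most genes with several accessions lie under 3.11, below which no accession has an adjusted p.

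Among the 24 genes that could be tested, the authors' deposited table called 11 higher and 2 lower in the knockout at an adjusted p under 0.05. That is 45.8% higher and 8.33% lower, where 11.6% of all 10303 tested accessions were called higher and 11.9% lower. Since calls depend on depth, the same shares were taken at a base mean of at least 100. There 11 of 20 members (55.0%) were higher and 2 lower, against 19.9% and 23.1% of 4308 accessions in the authors' deposited table. The median log2 fold change was 0.33 for the 24 members and 0.02 over all tested genes of the authors' deposited table, and 20 of 24 members (83.3%) had a positive value, against 51.7% of all tested genes.

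The changes were small. The largest rise was 1.86-fold (E2F2) and the largest fall 0.634-fold (E2F7) in the authors' deposited table. None of the 13 called members passed when the test asked for more than a 1.5-fold change, computed from the same values, where MCM6 came nearest with an adjusted p of 0.187. When the Wald scores were divided by their own central spread of 1.75, which allows for scores wider than the test assumes, 8 of the 13 calls held. CDC6 (adjusted p = 0.277), GINS2 (0.0707), POLA2 (0.273), PRIM2 (0.521) and E2F8 (0.378) did not pass with these scaled scores of the authors' deposited table.

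**Figure D2:**
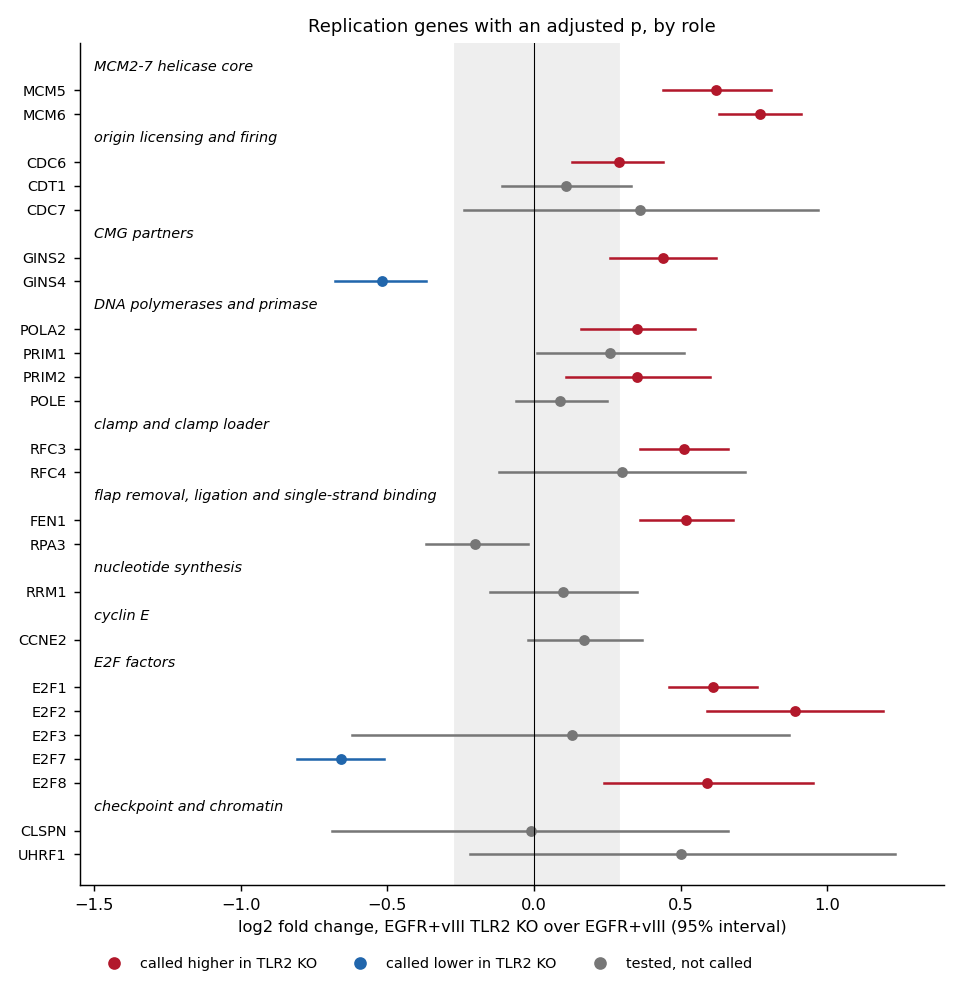
Log2 fold changes of the 24 replication genes with an adjusted p, grouped by role, with 95% intervals from the deposited standard errors. Grey shading spans the middle 50% of all tested accessions. Red genes lie to the right of 0, from CDC6 at 0.29 to E2F2 at 0.89, and GINS4 and E2F7, in blue, lie at -0.52 and -0.66.

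In the helicase ring, both members with an adjusted p rose. MCM6 (chromosome 2, 135839626 to 135876443), a subunit of the ring, rose 1.70-fold in the authors' deposited table, with a 95% interval of 1.55 to 1.88 and an adjusted p of 5.07e-26, the smallest among the 48 genes. The base mean and the fold change correspond to about 9488 normalized reads per library in the knockout and 5566 in EGFR+vIII, computed here from the authors' deposited table. MCM5 (chromosome 22, 35400140 to 35455031), another subunit, rose 1.54-fold (interval 1.35 to 1.75, adjusted p = 7.69e-10), or about 3272 reads in the knockout and 2127 in EGFR+vIII by the same computation from the authors' deposited table. The intervals of both subunits overlap. Per kilobase of transcript, MCM6 has a base mean of 2010 and MCM5 of 764, computed from the authors' deposited table and the length of the matching GENCODE transcript. For MCM3, MCM4 and MCM7, which had no adjusted p, the normalized reads over all 6 libraries were 14.9, 14.5 and 7.83.

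Of the factors that load the ring or fire origins, 1 of 3 tested genes was called. CDC6, the ATPase that helps the origin recognition complex to load MCM rings, rose by 0.29 on the log2 scale (SE 0.08, adjusted p = 0.00228), with about 4278 reads in the knockout and 3504 in EGFR+vIII computed from the authors' deposited table. CDT1, which works with CDC6 in loading, had a log2 fold change of 0.11 with SE 0.11 and adjusted p = 0.569 in the authors' deposited table, and its fold interval of 0.928 to 1.26 holds that of no change. The kinase gene CDC7, which triggers firing, had only 18.7 normalized reads over the 6 libraries and a fold interval of 0.847 to 1.95 in the authors' deposited table.

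The partners that complete the helicase moved apart. GINS2, a subunit of the GINS complex, rose 1.36-fold (interval 1.20 to 1.54, adjusted p = 2.09e-05), or about 1999 reads in the knockout and 1475 in EGFR+vIII from the authors' deposited table. GINS4 (chromosome 8, 41529261 to 41545030), a subunit of the same complex, fell to 0.695-fold (interval 0.625 to 0.773, adjusted p = 4.6e-10), or about 2541 reads in the knockout and 3655 in EGFR+vIII from the authors' deposited table. The 2 intervals lie on opposite sides of 1 and do not overlap. GINS1, GINS3 and CDC45 had no adjusted p, so the complex is seen in only 2 of its 4 subunits.

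Polymerase and primase genes had 2 of 4 tested members higher and none lower. POLA2, the second subunit of polymerase alpha, rose by 0.35 (SE 0.10, adjusted p = 0.00215) and PRIM2, the large primase subunit, by 0.35 (SE 0.12, adjusted p = 0.0218) on the log2 scale, per the authors' deposited table. PRIM1, the catalytic primase subunit, had a log2 fold change of 0.26 with SE 0.13 with an unadjusted p of 0.0388 and an adjusted p of 0.129 in the authors' deposited table. POLE, the catalytic subunit of the leading strand polymerase epsilon, had a log2 fold change of 0.09 with SE 0.08 and adjusted p = 0.472 at a base mean of 2093 in the authors' deposited table. Its fold interval, 0.958 to 1.19, lies below those of MCM5 and MCM6.

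In the clamp loader, RFC3 (chromosome 13, 33818149 to 33977377) rose 1.42-fold (interval 1.29 to 1.58, adjusted p = 3.94e-10), or about 3984 reads in the knockout and 2796 in EGFR+vIII from the authors' deposited table. RFC4, another loader subunit, had a fold of 1.23 with an interval of 0.917 to 1.65 (adjusted p = 0.375) at a base mean of 129 in the authors' deposited table. The RFC4 interval includes both no change and the RFC3 value, so the loader subunits were not shown to differ.

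FEN1 (chromosome 11, 61792911 to 61797238), the nuclease that trims Okazaki fragments, rose 1.43-fold (interval 1.28 to 1.60, adjusted p = 2.29e-09), or about 3845 reads in the knockout and 2681 in EGFR+vIII from the authors' deposited table. RPA3, the small subunit of the protein that coats single-stranded DNA, had a fold of 0.873 (interval 0.772 to 0.987) in the authors' deposited table, with an unadjusted p of 0.0304 and an adjusted p of 0.107. RPA3 shares 77856 bases of its span with another gene, UMAD1. Among called members, GINS4 shares 10726 bases with GPAT4-AS1, E2F8 17593 with CSRP3-AS1, POLA2 12213 with LOC105369344 and E2F2 6490 with LOC101928163, and PRIM2 overlaps RAB23 and LINC03001 by 768 and 2823 bases. These are overlaps of whole gene spans, introns included. The base means listed are 6.67 for UMAD1, 0.801 for GPAT4-AS1, 0.349 for LOC101928163, 55.7 for RAB23 and 28.4 for LINC03001. CSRP3-AS1 and LOC105369344 have no value. As the sources used here do not say whether counting used strand, reads of such pairs cannot be told apart where exons overlap.

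Nucleotide synthesis and cyclin E were each represented by 1 tested gene, and neither was called. RRM1, the large subunit of ribonucleotide reductase, had a fold of 1.07 (interval 0.900 to 1.27, adjusted p = 0.679), with about 646 reads in the knockout and 604 in EGFR+vIII from the authors' deposited table. CCNE2, a cyclin that drives the entry into S phase, had a fold of 1.13 (interval 0.985 to 1.29, adjusted p = 0.229) at a base mean of 1355 in the authors' deposited table. The upper ends of both intervals lie below the lower end for MCM6. TYMS and TK1, the enzymes of thymidylate supply, and RRM2 and CCNE1 could not be assessed.

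All 5 E2F genes of the list were tested, and 3 rose and 1 fell. E2F1 (chromosome 20, 33675477 to 33686385), an activator of S phase genes, rose 1.53-fold (interval 1.38 to 1.70, adjusted p = 5.71e-14), or about 5879 reads in the knockout and 3847 in EGFR+vIII from the authors' deposited table. E2F2 (chromosome 1, 23505212 to 23531233), a second activator, rose 1.86-fold (interval 1.51 to 2.28, adjusted p = 6.99e-08), or about 544 reads in the knockout and 293 in EGFR+vIII from the authors' deposited table. The intervals of these activators overlap, and per kilobase the base mean of E2F1 is 1940 and that of E2F2 80.6. E2F3, the remaining activator, had 77.0 normalized reads over the 6 libraries and a fold interval of 0.651 to 1.83 in the authors' deposited table, too wide to place it.

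The repressing E2F genes went opposite ways. E2F7 (chromosome 12, 77021251 to 77065569) fell to 0.634-fold (interval 0.571 to 0.704, adjusted p = 6.53e-16), or about 7377 reads in the knockout and 11636 in EGFR+vIII from the authors' deposited table. E2F8 rose 1.51-fold (interval 1.18 to 1.93, adjusted p = 0.00683), or about 252 reads in the knockout and 167 in EGFR+vIII from the authors' deposited table. With Wald scores divided by their central spread, E2F7 kept its call (adjusted p = 4.51e-05) and E2F8 did not (adjusted p = 0.378). Per kilobase, the base mean of E2F7 is 1660 and that of E2F8 is 64.5. E2F8 has several RefSeq transcripts, and most members of that kind had no adjusted p, so these levels do not rank the genes. E2F7 is also known as a target of p53.

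CLSPN, the checkpoint mediator claspin, and UHRF1, which brings the maintenance DNA methyltransferase to newly copied DNA, had base means of 27.0 and 7.43 and fold intervals of 0.621 to 1.58 and 0.856 to 2.34 in the authors' deposited table. Both intervals include no change.

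The share of promoters with an E2F word was 56.1% for the members (23 of 41 genes with a RefSeq promoter, exact binomial 95% interval 39.7 to 71.5, counting error only). Promoters here span 250 bases before to 50 bases after each annotated start, and a gene counts when any of its windows holds one of the 4 words shown with the promoters above. Over all genes of the same table the share was 3.99% (1090 of 27305), and over tested genes with a base mean of at least 100 it was 5.70% (193 of 3388). Among the other replication genes described below it was 29.7% (11 of 37, interval 15.9 to 47.0). Among members with a promoter, the words stood in 7 of the 9 that were called higher, in 6 of 9 that were tested and not called, and in 10 of 22 without an adjusted p. Whether these shares differ was not tested. FEN1 and PRIM2 are the members called higher that have a promoter window without one, and of the 2 members that fell, E2F7 has a window without one. MCM5, E2F8, GINS4, MCM4, CCNE2, RPA2 and RPA3 were not matched.

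**Figure D3:**
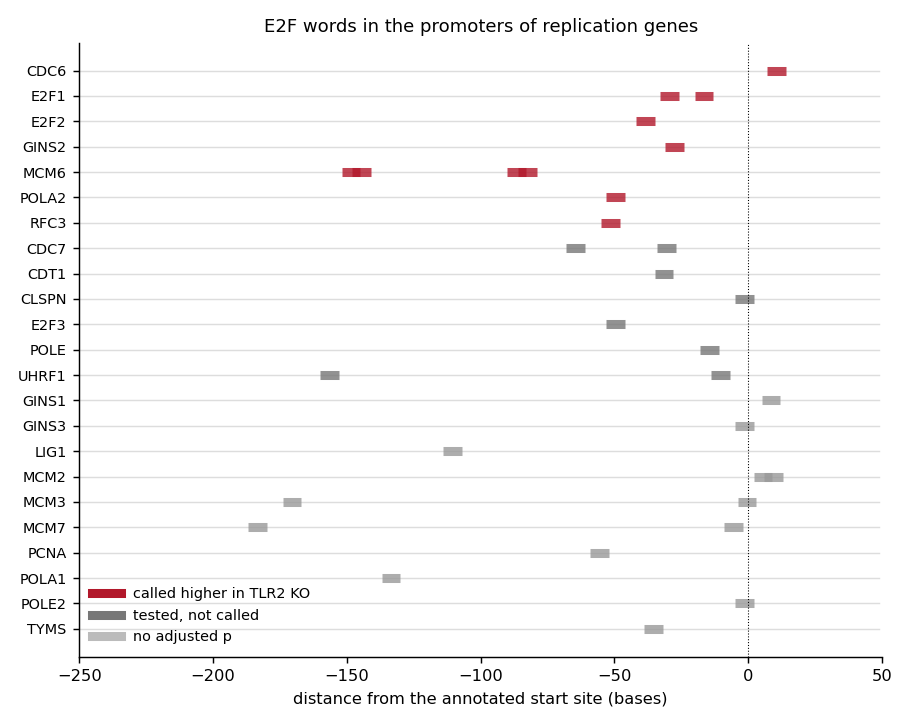
Positions of E2F words (bars of 8 bases, on either strand) relative to the annotated start site, for the 23 replication genes that hold one. Rows run from genes called higher in the knockout at the top, through tested genes not called, to genes with no adjusted p, and in 21 of the 23 at least 1 word falls between 100 bases before and 50 bases after the start.

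Other replication factors were counted from a list of 46 genes that shares none with the 48. Of 28 with an adjusted p, the authors' deposited table called 8 higher and 0 lower (28.6% higher), with a median log2 fold change of 0.21. All 8 have a base mean of at least 100, where 19.9% of accessions were called higher and 23.1% lower, and 19 of the 28 genes reach that level. Over all tested accessions the shares are 11.6% and 11.9%. The 4 with the largest Wald scores in absolute size among those called were SAMHD1, CCNA2, TOP1 and TRAIP. SAMHD1, which degrades deoxynucleotides, rose by 0.80 (SE 0.10) and CCNA2, the cyclin of S phase and G2, by 0.51 (SE 0.07) on the log2 scale, per the authors' deposited table. TOP1, the topoisomerase that relieves supercoils, rose by 0.40 (SE 0.07) and TRAIP, a ubiquitin ligase that unloads the helicase, by 0.56 (SE 0.13) in the authors' deposited table. The adjusted p of these 4 genes was at most 0.000185 in the authors' deposited table. TOP2A, the topoisomerase used in mitosis as well, had a log2 fold change of 0.18 with SE 0.07 and adjusted p = 0.0596 in the authors' deposited table.

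Regulators upstream of E2F, a list of 29, had 16 tested genes, of which the authors' deposited table called 3 higher and 0 lower (18.8% higher), a share near the 11.6% called higher and 11.9% called lower over all tested accessions. CDK4, the kinase that phosphorylates the retinoblastoma protein, rose by 0.56 (SE 0.07 and adjusted p = 9.22e-13) and E2F4, a repressing E2F, by 0.38 (SE 0.11 and adjusted p = 0.00263), per the authors' deposited table. CCND2, a cyclin partner of CDK4, was called higher at a base mean of 5.44, and CCND1, its relative, had a log2 fold change of 0.09 with SE 0.07 and adjusted p = 0.399 at a base mean of 26139 in the authors' deposited table. RB1, the retinoblastoma gene, had a log2 fold change of 0.12 with SE 0.08 and adjusted p = 0.334 and CDKN1B, an inhibitor of cyclin E kinase, 0.13 (SE 0.10 and adjusted p = 0.401) in the authors' deposited table.

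**Figure D4:**
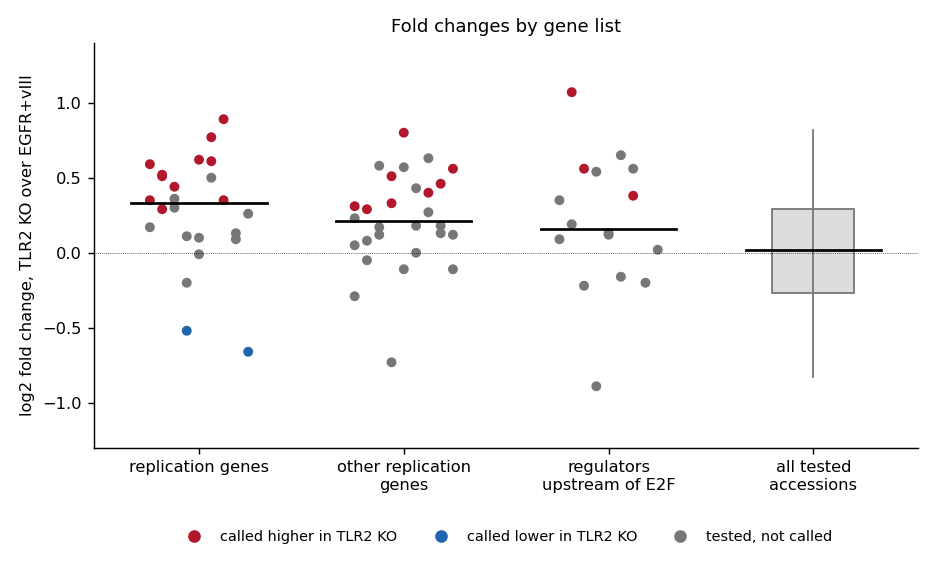
Log2 fold changes of tested genes, 1 point per gene, in the replication list, the list of other replication genes and the regulators upstream of E2F, with the median of each as a black line. The box spans the middle 50% of all tested accessions and its line the 5th to 95th percentile, and the medians lie at 0.33, 0.21 and 0.16 for the lists and at 0.02 for all.

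Each member was also set against the median log2 fold change of its 10 nearest tested genes on each side. The test used the SE of the member alone and took the neighbours' median as known without error. The adjusted p-values relative to neighbours may therefore be too small. FEN1 and POLA2, both on chromosome 11, have neighbours with medians of 0.39 and 0.27, and relative to these their log2 fold changes were 0.13 (adjusted p = 0.249) and 0.09 (adjusted p = 0.605), computed from the authors' deposited table. PRIM2 lost its call too, at 0.29 (adjusted p = 0.0731). The other 8 genes called higher and both genes called lower kept their calls relative to neighbours, with RFC3 at 0.68, MCM6 at 0.74, E2F2 at 0.93, GINS4 at -0.40 and E2F7 at -0.48. CDT1 and CCNE2, whose neighbours have medians of -0.22 and -0.13, passed on this scale at 0.33 (adjusted p = 0.0153) and 0.30 (adjusted p = 0.0131). Whether the neighbours' shifts have a part in any of these values was not tested.

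**Figure D5:**
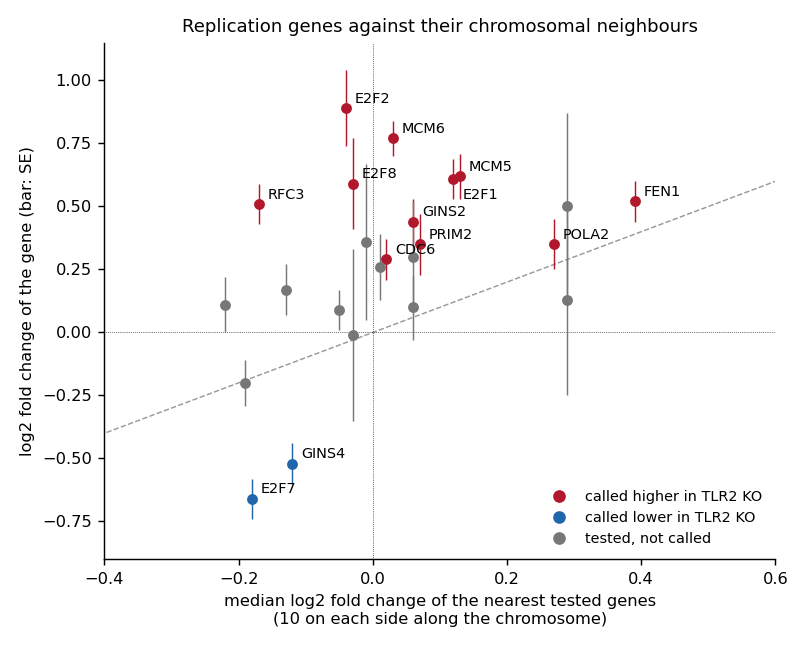
Log2 fold change of each tested replication gene (bars, SE) against the median of its nearest tested genes along the chromosome. On the dashed line a gene equals its neighbours. FEN1 and POLA2 lie near the line at neighbour medians of 0.39 and 0.27, and MCM6, E2F2, E2F8 and RFC3 lie well above it at neighbour medians between -0.17 and 0.03.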

How the data were processed

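The 48 genes, the 2 further lists and the tests were chosen with earlier results of these data known. Groups come from the cell type in the labels. The submitters' processing notes name STAR, DESeq2 and hg38, and the sources used here do not give the counter, annotation release, library kit or strandedness. Per the file headers, the authors deposited a base mean for each RefSeq accession, used here as a signal of abundance. The authors' deposited fold change and its SE are on the log2 scale. The deposited Wald score equals the fold change over its SE to within 5.39e-07. The p-value the authors deposited is that of the Wald score, and its adjusted value matches Benjamini-Hochberg over 10303 accessions to within 4.48e-07. Missing adjusted p stayed missing, and the lowest base mean with one is 3.11. The largest SE is 0.38, as for E2F3 at a base mean of 12.8, and POLA1 at a base mean of 0.158 has 0.14. Because the SE does not keep growing as reads become fewer, changes of genes with few reads may be drawn towards 0. The intervals, group levels and alternative tests take the deposited values as they are.

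Computed here (Python 3.11.15, pandas 2.3.3, scipy 1.17.1) were 95% normal intervals from the deposited SE, approximate group levels that assume base mean and fold change describe equal groups of 3, alternative tests and word matches in promoters. The scaled and the 1.5-fold tests were run on simulated fold changes drawn with the deposited SE. Scores simulated in this way lack the wider central spread of 1.75 seen in the data. The centred and readjusted settings were not simulated. Symbols came from a RefSeq table of GRCh38.p14, which matched 98.8% of accessions. Every one of the 48 genes was accounted for by rule, and of the other lists the 4 called genes with the largest absolute Wald score were named. TOP2A, CCND1, RB1, CDKN1B and the genes of these lists named under the other observations were added after their values were seen. A count test per library could not be run. One marker of the line is not reported here. The total of counted reads is known only as the mean over libraries.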

Additional observations from a re-analysis of the deposited data

How the results depend on the processing

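No paired analysis was possible because the table holds no value per library, and for the same reason leaving out a replicate and other count models were not run. The counts of 11 higher and 2 lower members were 6 and 2 with Wald scores divided by their central spread, and 0 and 0 when the test asked for more than a 1.5-fold change, which asks for a larger effect by construction. For the other replication genes, 8 higher became 3 and 0 under these settings, and 0 were lower in every setting tried. Adjustment over every accession with a p-value, adjustment over 1 accession a gene, centring on the median, a base mean of at least 100 and counting any accession gave 11 and 2 members, genes with 1 accession gave 8 and 2, and centring on neighbouring genes gave 10 and 2. Relative to neighbours, E2F3 turned to -0.17 and CLSPN to 0.02, neither called in either setting. The share of promoters with an E2F word was 51.2% with 2 words only and 51.2% in a window from 100 bases before the start. Low listed counts limit CDC7, UHRF1, E2F3 and CLSPN, whose intervals are the widest. Each of these genes has several RefSeq transcripts, and why their counts are low was not tested.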

Other observations

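Second accessions of 2 members were deep enough to carry an adjusted p. For RFC3, the other accession has a base mean of 11.4 and a log2 fold change of 0.76 with SE 0.38 and adjusted p = 0.146, and the one that stands for the gene has 0.51 (SE 0.08) in the authors' deposited table. For RRM1, the other accession has a base mean of 3.80 and a log2 fold change of 0.12 with SE 0.33 and adjusted p = 0.866, beside 0.10 (SE 0.13) for the main one in the authors' deposited table. Of the inhibitors of cyclin-dependent kinases in the list of regulators, CDKN1A, a p53 target, had a log2 fold change of -0.89 with SE 0.36 and adjusted p = 0.0593 at a base mean of 5.77 in the authors' deposited table. CDKN2D had -0.16 with SE 0.35 and adjusted p = 0.833, and CDKN1C, CDKN2A, CDKN2B and CDKN2C are listed at 0 in every accession. Each of these genes has several RefSeq transcripts, so a low listing says little about its expression. DSCC1 and ATAD5, subunits of alternative clamp loading complexes, rose by 0.33 (SE 0.10) and 0.29 (SE 0.11), and CHTF18, of the same family, had a log2 fold change of 0.12 with SE 0.21 in the authors' deposited table.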
